A study of Homo sapiens with 39 samples.

Results

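The 35 genes described here encode the enzymes of glycolysis, lactate dehydrogenase, the enzymes particular to gluconeogenesis, the pyruvate dehydrogenase complex with its kinases, and the bifunctional enzymes that set the level of fructose 2,6-bisphosphate. They were chosen by name, from a list of pathway enzymes, and all 35 have a row in each of the 13 deposited tables, among 45435 rows. The tables hold TPM (a transcript abundance corrected for length and scaled to the same sum in each library) for 39 RNA-seq libraries of HCT116, a human colorectal cancer cell line, 3 libraries in each of 13 groups. The control group was the parental Flp-In T-REx host with no HNF4A construct, kept in blasticidin S and zeocin before the experiment. The other 12 groups were stable lines kept in blasticidin and hygromycin B, each carrying 1 insertion of 1 human isoform of hepatocyte nuclear factor 4 alpha (HNF4A, isoforms 1 to 12) with GFP at the C-terminal end. All groups, the control included, received 2.5 µg/ml doxycycline for 48 h without the selection antibiotics. The lines are called below by their isoform number. Each isoform is 1 line and no line carried GFP alone, so isoform, line, GFP and former antibiotic cannot be told apart. The labels do not say whether the 3 libraries of a group came from separate cultures, so p-values measure the spread between these libraries, which may be technical.

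Glycolysis splits glucose to pyruvate, which lactate dehydrogenase turns into lactate and the pyruvate dehydrogenase complex turns into acetyl-CoA for the citrate cycle. Several steps are carried out by isozymes from different genes, whose balance differs between tissues and tumours. Gluconeogenesis, the route back to glucose, needs its own enzymes and runs mainly in liver and kidney. HNF4A is a nuclear receptor of liver, gut, kidney and pancreas, known in hepatocytes for driving the gluconeogenic genes PCK1 and G6PC.

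To show what lies upstream of the genes on which the results turn, stretches before the RefSeq transcription starts of LDHA, LDHB and ENO3 are printed below (GRCh38.p14, 5′ to 3′ on the gene's strand), without bases that GENCODE 29 places in an exon. The LDHA stretch is chr11:18394313-18394387 on the plus strand. The LDHB stretch is chr12:21657972-21658092 on the minus strand. The ENO3 stretch is chr17:4950869-4951079 on the plus strand. Capitals mark matches, on either strand, to CAAAGNNCA, the core of HNF4-type sites, or to ACGTG, the core of hypoxia response elements. The palindrome CACGTG holds ACGTG on both strands.
LDHA: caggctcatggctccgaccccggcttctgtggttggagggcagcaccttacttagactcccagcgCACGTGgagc
LDHB: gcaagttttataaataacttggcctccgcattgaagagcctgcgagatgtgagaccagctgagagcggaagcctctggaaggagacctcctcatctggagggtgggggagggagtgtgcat
ENO3: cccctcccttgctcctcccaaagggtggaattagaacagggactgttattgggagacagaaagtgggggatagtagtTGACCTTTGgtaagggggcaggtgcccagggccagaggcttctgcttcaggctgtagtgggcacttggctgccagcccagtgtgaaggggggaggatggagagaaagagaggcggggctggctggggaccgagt

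In the 250 bases before each RefSeq start, CAAAGNNCA occurred at 3 of 57 starts of the tested members, those of ENO3, G6PC3 and PGAM1, and at 4.44% of 35116 starts of all genes. ACGTG occurred at 23 of 57 starts of the members and at 18.5% of all starts. LDHA held ACGTG at 1 of its 2 starts, the one printed, and ENO2 at its 1 start, while LDHB and ENO3 did not hold it. ENO3 held CAAAGNNCA at 1 of its 2 starts, again the one printed. These counts cover the full 250 bases with exon bases included, which the printed stretches leave out. Among the members, 32 of 35 had an entry in the table of starts. A match is a string of letters, not a bound site.

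HNF4A itself in the parental cells was at 31.5 TPM ± 0.589 (SD, n = 3), and it was between 614 TPM (isoform 2) and 1071 TPM (isoform 6) in the lines. The mean was 782 TPM for isoform 1 and 856, 852 and 1071 TPM for isoforms 4, 5 and 6. The library labelled isoform 3 replicate 1 stood apart with 407 TPM of HNF4A, where replicates 2 and 3 had 833 and 772 TPM. The epithelial markers EPCAM, KRT8, KRT18, CDH1 and CLDN7 were measured in all libraries, with CDH1 lowest at 20.6 TPM. Their levels moved with the lines. All 5 passed as higher in isoforms 1, 7 and 11, where 19.8%, 13.4% and 14.5% of all genes were higher. KRT18 was at 0.96 and CDH1 at 0.89 on the log2 scale in isoform 1. In isoform 6, 4 passed as lower (4.13% of all genes). In the other lines between 2 and 4 passed, with 4 higher in isoform 2 and 3 lower in isoform 5. The part of these markers in the results on the members was not tested. PTPRC, CD3E, CDH5, COL3A1 and ALB, which mark leukocytes, endothelium, fibroblasts and hepatocytes, stayed under 1 TPM in every library, while the endothelial gene PECAM1 reached 6.43 TPM (1.02 on the log2 scale in isoform 1, -0.44 in isoform 6) and the fibroblast gene COL1A1 14.9 TPM.

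Together the members made up 1.27% of all TPM in the parental cells (12711 TPM ± 171, SD, n = 3) and between 1.25% (isoform 5) and 1.35% (isoform 1) in the lines. GAPDH, the oxidising enzyme at the middle of the pathway, was at 2504 TPM in the parental cells, and its line means were between 2328 and 2471 TPM. ENO1, the main enolase, was at 1828 TPM, with line means between 1762 and 1866 TPM. Of the 30 members tested, 6 differed from the parental cells by more than 0.5 on the log2 scale in at least 1 line, namely LDHA, ENO2, ENO3, PFKM, PFKP and PCK2. In bulk RNA, fewer cells of a kind and less RNA per cell cannot be told apart.

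Tests were run with limma on log2(TPM + 1) over the 15003 genes whose mean reached 1 TPM, which kept 30 members. PKLR, PCK1, FBP1, FBP2 and G6PC fell under that level. A gene passed at a Benjamini-Hochberg adjusted p under 0.05 and was called if its log2 fold change was also at least 1 in size. All 12 comparisons share the 3 parental libraries, so their results are not independent of each other. Over 30 genes and 12 lines, 141 of 360 differences passed, 88 higher and 53 lower than in the parental cells, and 335 were within 0.5 on the log2 scale. When the libraries were rescaled by the median of their gene ratios, 170 passed, 134 higher and 36 lower. The share of passing differences that were higher thus went from 62.4% to 78.8%. Pooled shares of all genes are not given for these counts, so they do not set the members apart. The shares of all genes in each line, before rescaling, follow below. Before rescaling, the tested genes had a median log2 fold change of -0.107 for isoform 1 and -0.09 for isoform 2, and after it the medians of the 12 lines were between 0.003 and 0.029.

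The number of members that passed differed widely between lines, as did the number of all genes that passed. In isoform 1, 11 members were higher and 12 lower, where 19.8% and 38.7% of all tested genes were higher and lower. Isoform 2 had 10 higher and 13 lower members (19.7% and 35.6% of all genes). Isoform 3 had 8 and 4 (11.2% and 14.7%). In isoform 4, 6 members were higher and 1 lower (6.26% and 10.1% of all genes). Isoform 5 had 2 and 2 (9.57% and 5.22%). Isoform 6 had 3 higher and 0 lower (5.94% and 4.13%). These 3 lines, 4 to 6, had the fewest changed members beside isoform 12. In isoform 7, 7 members were higher and 5 lower (13.4% and 26.2% of all genes). Isoform 8 had 10 and 6 (16.9% and 17.5%). Isoform 9 had 8 and 2 (10.9% and 11.8%). In isoform 10, 9 members were higher and 3 lower (17% and 20.4% of all genes). Isoform 11 had 8 and 5 (14.5% and 24%). Isoform 12 had 6 higher and 0 lower (7.92% and 6.65%). The members' median log2 fold change was between 0.003 and 0.069 over the 12 lines, and that of all tested genes between -0.107 and 0.012. Rescaling changed these splits most in isoforms 1 and 2, which then had 15 higher and 8 lower, and 17 higher and 8 lower, in place of a majority of lower members. It gave 14 and 4 in isoform 7, 14 and 3 in isoform 11, 13 and 0 in isoform 4, and 13 and 2 in isoform 9. Rescaling also raised the median of all tested genes, from -0.107 to 0.015 in isoform 1 and from -0.09 to 0.018 in isoform 2. Shares of all genes after rescaling are not given, so the rescaled splits do not set the members apart. Single libraries weighed on the small counts. The 12 members of isoform 3 became 6 without parental replicate 2 or isoform 3 replicate 2 and 7 without parental replicate 3. The 7 of isoform 4 became 4 without parental replicate 1 or 1 of its own libraries, the 3 of isoform 6 became 1 without isoform 6 replicate 3, and the 6 of isoform 12 became 3 without parental replicate 1 or isoform 12 replicate 3. Without isoform 3 replicate 1, the library that stood apart, 12 members passed in that line, 5 higher and 7 lower.

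**Figure D1:**
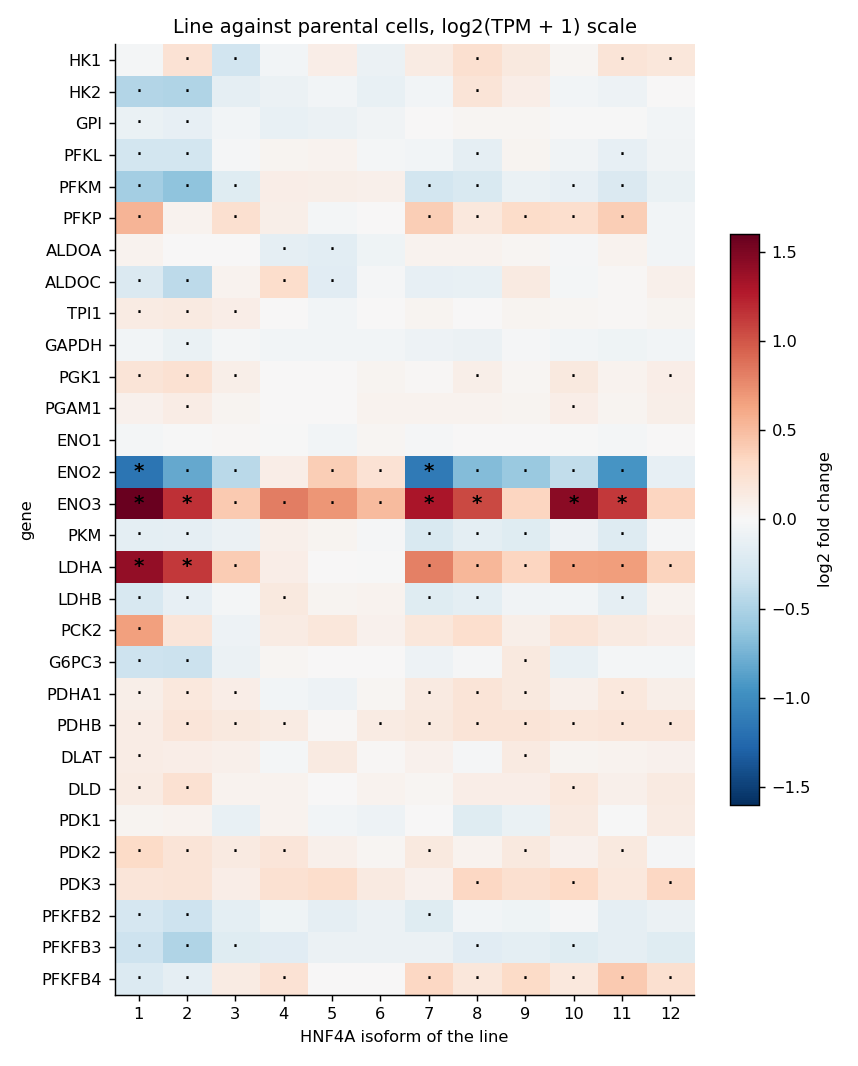
Log2 fold change against the parental cells (color, log2(TPM + 1) scale) for the 30 tested members (rows) in the 12 lines (columns, HNF4A isoform number). A dot marks an adjusted p under 0.05 and a star a called difference. The strongest colors stand in the rows of LDHA, ENO2 and ENO3, and the columns of isoforms 4 to 6 are mostly pale.

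Only ENO3, LDHA and ENO2 were called, in 10 differences that all fell in isoforms 1, 2, 7, 8, 10 and 11. Isoform 1 had 3 called members (4.52% of all genes were called), isoform 2 had 2 (3.73%), isoform 7 had 2 (2.08%), and isoforms 8, 10 and 11 had 1 each (1.41%, 1.44% and 1.7%). Isoforms 3, 4, 5, 6, 9 and 12 had 0, where 0.807%, 0.54%, 0.293%, 0.247%, 0.827% and 0.573% of all genes were called.

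Lactate dehydrogenase is a tetramer of A and B subunits, with the A form known for favouring lactate formation. LDHA (chromosome 11, 18394388 to 18408425, GRCh38) was at 639, 627 and 610 TPM in the 3 parental libraries. It was at 1646, 1626 and 1680 TPM in isoform 1, and at 1339, 1421 and 1350 TPM in isoform 2. All libraries of both lines thus lay far above the parental range, with log2 fold changes of 1.40 ± 0.046 (SE, adjusted p = 6.78e-21, limma) and 1.13 ± 0.046 (adjusted p = 1.1e-18). Isoform 3 had 754, 893 and 854 TPM, with replicate 1, the library low in HNF4A, the lowest of the 3. Its log2 fold change was 0.41, and 0.48 without that library.

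In isoforms 4, 5 and 6 LDHA stayed near the parental level. Their libraries had 657, 698 and 676 TPM, then 631, 646 and 614 TPM, then 620, 624 and 612 TPM. None of these 3 lines passed (log2 fold changes of 0.11, 0.01 and -0.01), although isoform 4 lay above all parental libraries and passed at 0.18 after rescaling (adjusted p = 0.00577). In isoform 7 LDHA was at 1095, 1118 and 1045 TPM, in isoform 8 at 932, 848 and 924 TPM, and in isoform 9 at 745, 821 and 811 TPM. Isoform 10 had 981, 1002 and 979 TPM, isoform 11 had 964, 1011 and 1012 TPM, and isoform 12 had 778, 823 and 807 TPM. All 6 of these lines passed, with log2 fold changes of 0.80, 0.53, 0.34, 0.66, 0.67 and 0.36. In order of level, isoforms 1, 2 and 7 were each separate from the next group. Isoforms 11 and 10 overlapped, and so did isoforms 8 and 3, 3 and 12, and 12 and 9. Isoforms 10, 9 and 4 were also each separate from the next group, and isoforms 5 and 6 overlapped with the parental cells.

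LDHB (chromosome 12, 21635342 to 21757857) was the more abundant subunit gene in the parental cells, at 1773, 1808 and 1752 TPM. It was at 1420, 1533 and 1514 TPM in isoform 1, which gave a log2 fold change of -0.26 ± 0.043 (SE, adjusted p = 8.52e-06). The libraries of isoforms 1, 2, 7, 8, 10 and 11 lay below those of the parental cells, and all of these but isoform 10 passed. After rescaling only isoforms 1, 7 and 8 passed as lower. The call was lost for isoform 2 without its replicate 1 (adjusted p = 0.0606), for isoform 8 without its replicate 2 (0.0579), and for isoform 11 without its replicate 1 (0.0593) or parental replicate 2 (0.0524). In isoform 4 LDHB was at 1874, 2002 and 2035 TPM and passed as higher (0.15, adjusted p = 0.0183), a call lost without parental replicate 1 (adjusted p = 0.0506) or parental replicate 3 (0.0721), or without either of 2 of its own libraries (0.0717 and 0.0889). LDHA made up 26.0% ± 0.401 (SD, n = 3) of the sum of both genes in the parental cells, 52.6% ± 1.11 in isoform 1 and 45.8% ± 0.194 in isoform 2. The share was 41.3% in isoform 7, between 30.3% and 38.1% in isoforms 8 to 12, 32.4% in isoform 3, and between 25.1% and 25.6% in isoforms 4 to 6.

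**Figure D2:**
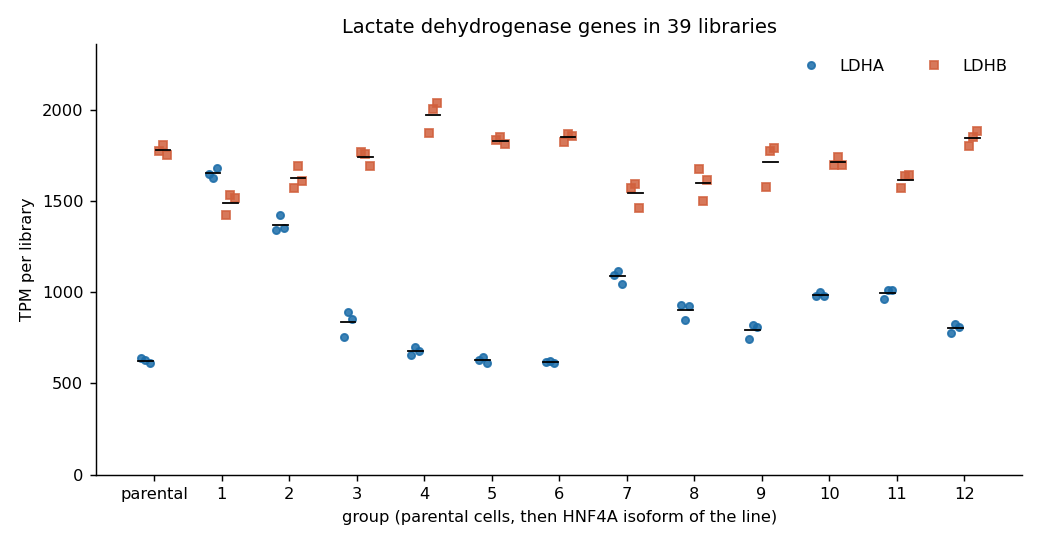
TPM of LDHA (circles) and LDHB (squares) in each of the 39 libraries, with bars at the group means, for the parental cells and the 12 lines. LDHA exceeds LDHB in the 3 libraries of isoform 1 alone, where LDHA is at 1626 to 1680 TPM and LDHB at 1420 to 1533 TPM.

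Enolase, which forms phosphoenolpyruvate, comes from ENO1 in most cells, with ENO2 known as the neuronal and ENO3 as the muscle form. ENO1 passed in 0 of 12 lines (in isoforms 1 and 2, at 0.10 and 0.11, after rescaling) and held between 97.1% and 98.4% of the enolase mRNA in every group. In 8 lines ENO2 passed as lower, while ENO3 passed as higher in 10, isoforms 5 and 6 among them, where ENO2 passed as higher too. ENO3 (chromosome 17, 4948092 to 4957131) was at 10.3, 8.81 and 8.87 TPM in the parental replicates and at 30.1, 30.1 and 29.1 TPM in isoform 1, which gave a log2 fold change of 1.58 ± 0.13 (SE, adjusted p = 6.99e-12). The highest single value, 30.7 TPM, was in isoform 10, whose other libraries had 26.5 and 24.6 TPM. ENO3 was called in isoforms 1, 2, 7, 8, 10 and 11, with log2 fold changes of 1.58, 1.17, 1.30, 1.05, 1.45 and 1.13. The value for isoform 8 was 0.97 without its replicate 2.

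In isoform 2 the libraries had 21.5, 23.0 and 22.2 TPM of ENO3, in isoform 7 they had 25.5, 20.5 and 27.3 TPM, in isoform 8 they had 18.8, 23.0 and 19.7 TPM, and in isoform 11 they had 22.8, 21.4 and 20.6 TPM. These 4 lines overlapped with each other. Unlike LDHA, ENO3 was also higher in isoforms 4, 5 and 6 (log2 fold changes of 0.82, 0.71 and 0.51, adjusted p of 2.6e-05, 0.000213 and 0.00837). Isoform 4 had 22.4, 15.4 and 14.5 TPM, so 1 library carried much of its mean, while isoform 5 had 16.5, 15.2 and 15.9 TPM and isoform 6 had 14.7, 12.8 and 13.6 TPM. Isoform 3 had 9.94, 14.4 and 14.7 TPM, with replicate 1 inside the parental range. It passed at 0.42 (adjusted p = 0.0136), reached 0.59 without that replicate, and was lost without parental replicate 2 (adjusted p = 0.0564), parental replicate 3 (0.0541), isoform 3 replicate 2 (0.0964) or isoform 3 replicate 3 (0.093). Isoforms 9 and 12, at 10.7 to 13.3 and 10.9 to 12.9 TPM, did not pass (adjusted p of 0.0517 and 0.0706), though no library of theirs was within the parental range, and isoform 9 passed after rescaling (0.37, adjusted p = 0.033). ENO3 overlaps PFN1, the abundant profilin gene on the opposite strand, whose mean was 1120 TPM in the parental cells and 1450 TPM in isoform 1. The counting is not stated to use strand, and a part of PFN1 reads in the ENO3 values was not tested.

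ENO2 (chromosome 12, 6913745 to 6923698) was at 27.8, 25.0 and 29.4 TPM in the parental libraries. It was at 11.3, 12.0 and 11.5 TPM in isoform 1 and at 11.6, 12.0 and 12.1 TPM in isoform 7. These 2 lines overlapped at the bottom of the order, with log2 fold changes of -1.17 ± 0.063 (SE, adjusted p = 8.73e-16) and -1.13 ± 0.063 (adjusted p = 6.08e-15), the called decreases. Isoform 11 had 14.5, 12.7 and 14.0 TPM (-0.94, which reached the called size without parental replicate 2). Isoform 2 had 14.3, 15.5 and 15.3 TPM, and isoform 8 had 15.9, 17.1 and 16.1 TPM. ENO2 also fell in isoforms 9, 10 and 3, with log2 fold changes of -0.60, -0.39 and -0.43. In isoform 5 it was higher, at 35.4, 35.8 and 36.8 TPM (0.39, adjusted p = 6.79e-05), and in isoform 6 it was at 32.4, 32.0 and 32.6 TPM (0.23, adjusted p = 0.0151, and 0.138 without parental replicate 2 or 0.0515 without isoform 6 replicate 3). Isoforms 4 and 12 overlapped with the parental cells and did not pass, but isoform 4 passed after rescaling (0.18, adjusted p = 0.0377). ENO3 made up 25.4% of the sum of ENO2 and ENO3 in the parental cells, 72.0% in isoform 1, 67.1% in isoform 7 and 29.7% in isoform 6. ENO2 shares a stretch with LRRC23 on the same strand, which was between 7.94 and 11.5 TPM in all libraries.

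**Figure D3:**
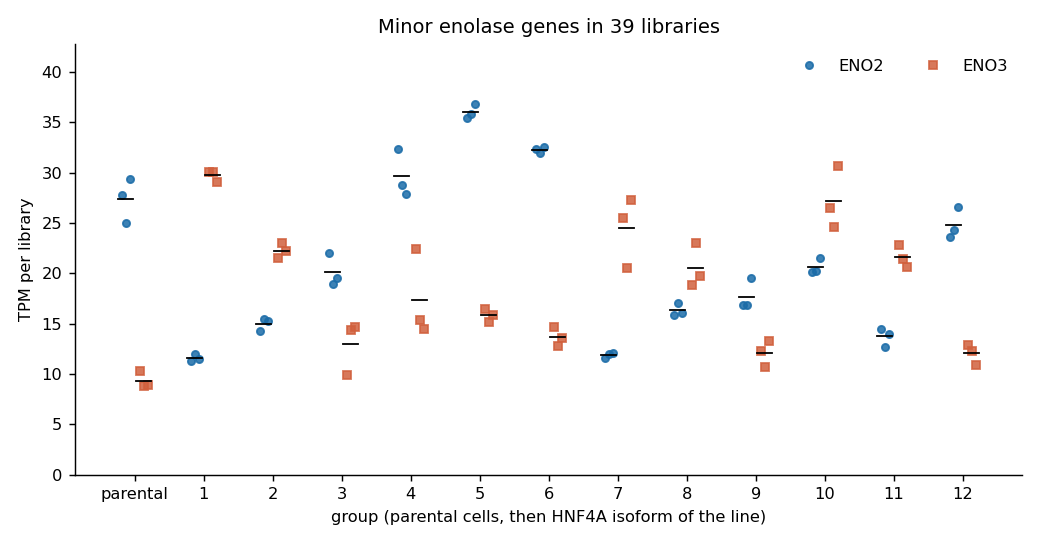
TPM of ENO2 (circles) and ENO3 (squares) in each of the 39 libraries, with bars at the group means. In the parental cells ENO2 (25.0 to 29.4 TPM) lies above ENO3 (8.81 to 10.3 TPM), and in isoform 1 ENO3 (29.1 to 30.1 TPM) lies above ENO2 (11.3 to 12.0 TPM).

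Phosphofructokinase, the committed step of glycolysis, is built from the liver (PFKL), muscle (PFKM) and platelet (PFKP) subunits. PFKP (chromosome 10, 3066333 to 3137712), the most abundant of them here, was at 143, 144 and 137 TPM in the parental replicates and at 210, 200 and 207 TPM in isoform 1 (log2 fold change 0.54 ± 0.047, adjusted p = 4.08e-11). It was also higher in isoforms 3, 7, 8, 9, 10 and 11, by 0.25, 0.39, 0.17, 0.29, 0.27 and 0.39. All libraries of these 7 lines lay above the parental ones, from 151 TPM in isoform 8 upward. In isoform 2, with 151, 153 and 137 TPM, PFKP did not pass (0.06, adjusted p = 0.329), but it passed after rescaling (0.18, adjusted p = 0.00155), as it did in isoform 4 (0.16, adjusted p = 0.0119).

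PFKM (chromosome 12, 48105139 to 48146404) went the other way. It was at 102, 103 and 102 TPM in the parental libraries, at 73.5, 68.6 and 67.9 TPM in isoform 1, and at 64.2, 69.0 and 61.9 TPM in isoform 2. These 2 lines were the lowest and overlapped, at log2 fold changes of -0.55 ± 0.045 (adjusted p = 1.19e-11) and -0.65 ± 0.045 (adjusted p = 3.58e-13). PFKM was also lower in isoforms 3, 7, 8, 10 and 11, by -0.20, -0.30, -0.25, -0.13 and -0.23. The call for isoform 10 was lost after rescaling (-0.08, adjusted p = 0.154) and without parental replicate 2 (adjusted p = 0.0635) or isoform 10 replicate 2 (0.103). Isoforms 4, 5 and 6, at 106 to 114 TPM, lay just above the parental range and did not pass, while isoform 4 passed as higher after rescaling (0.17, adjusted p = 0.0087). PFKL, at 58.7, 61.0 and 63.6 TPM in the parental cells and at 49.5, 51.4 and 48.2 TPM in isoform 1, was lower in 4 lines, and in 3 lines after rescaling, where it was higher in 1. The calls for isoforms 8 and 11 were lost without parental replicate 3 (adjusted p of 0.0666 and 0.0815), without isoform 8 replicate 1 (0.0689) and without isoform 11 replicate 3 (0.0806). The sum of the 3 genes was 305 TPM in the parental cells, 325 TPM in isoform 1 and 262 TPM in isoform 2, so PFKP held 46.3% of it in the parental cells, 63.2% in isoform 1 and 56.1% in isoform 2.

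**Figure D4:**
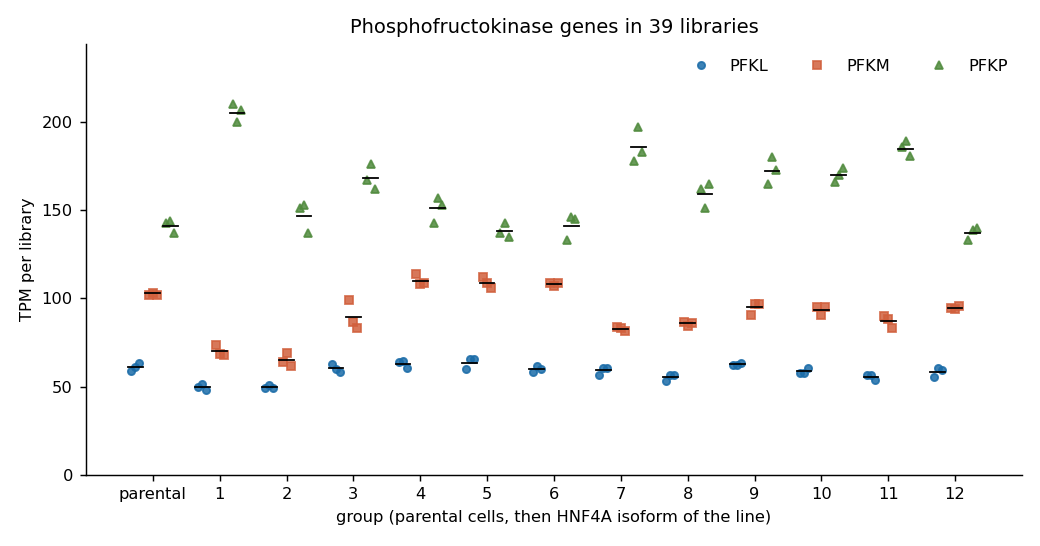
TPM of PFKL (circles), PFKM (squares) and PFKP (triangles) in each of the 39 libraries, with bars at the group means. The gap between PFKP and PFKM is widest in isoform 1, at 200 to 210 TPM against 67.9 to 73.5 TPM, and the parental cells have 137 to 144 TPM against 102 to 103 TPM.

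Hexokinase, which traps glucose in the cell, came mainly from HK1 among the members. HK1 was at 39.6, 41.6 and 41.7 TPM in the parental replicates and at 46.3 to 51.8 TPM in isoform 8, its highest line. It was higher in isoforms 2, 8, 11 and 12 and lower in isoform 3, where it was at 37.0, 31.7 and 30.3 TPM. HK2, the form often raised in tumours, was at 25.8, 25.7 and 25.3 TPM in the parental libraries, at 18.1, 19.4 and 17.1 TPM in isoform 1 and at 19.4, 17.8 and 16.9 TPM in isoform 2. Both lines passed (-0.47 and -0.48, adjusted p of 9.6e-07 and 8.41e-07), and HK2 was higher in isoform 8 (0.21, adjusted p = 0.0197). That last call was lost without parental replicate 3 (adjusted p = 0.0568) or isoform 8 replicate 1 (0.0613) or 3 (0.0986). The HK1 call for isoform 12 was lost without any of the 3 parental replicates and without isoform 12 replicate 2 or 3, with an adjusted p of up to 0.161.

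The middle and lower steps with 1 main gene changed little. GPI, the isomerase before phosphofructokinase, and ALDOA, the main aldolase, were lower in 2 lines each, by at most -0.13 and -0.17. GPI passed in 0 lines after rescaling, and ALDOA was then higher in 4 and lower in 1. The GPI call for isoform 1 was lost without parental replicate 1 or 2 or isoform 1 replicate 2 or 3 (adjusted p up to 0.0964). That for isoform 2 was lost without its replicate 1 (0.0507). The ALDOA call for isoform 4 was lost without parental replicate 1 or 2, or without either of 2 of its own libraries (up to 0.0677). ALDOC, the brain aldolase, was at 93.9, 95.1 and 95.8 TPM in the parental cells, at 67.6, 77.6 and 67.8 TPM in isoform 2 (-0.42, adjusted p = 1.5e-06) and at 118, 119 and 109 TPM in isoform 4 (0.28, adjusted p = 0.00206). TPI1, the triose isomerase, was higher in 3 lines by at most 0.14, and PGAM1, the mutase, in 2 lines by at most 0.12. After rescaling they were higher in 4 and 6 lines. The TPI1 call for isoform 3 was lost without any of the 3 parental replicates or isoform 3 replicate 1 or 2 (adjusted p up to 0.162). The PGAM1 call for isoform 10 was lost without parental replicate 2 or 3 or isoform 10 replicate 1 or 2 (up to 0.167). PGK1, which makes the first ATP of the pathway, was at 360, 367 and 354 TPM in the parental replicates and at 417, 435 and 428 TPM in isoform 2 (0.24, adjusted p = 9.3e-07), and was higher in 6 lines. Its calls for isoforms 3, 8 and 12 were each lost without 4 or 5 different single libraries, among them parental replicates 1 and 3, with an adjusted p of up to 0.244. GAPDH passed in isoform 2 alone (-0.11, adjusted p = 0.0312), and in 0 lines after rescaling, and the call was lost without parental replicate 1 (adjusted p = 0.0987) or 2 (0.0665) or isoform 2 replicate 1 (0.128) or 3 (0.0749). PKM, the pyruvate kinase of most tissues, was at 1068, 1049 and 1039 TPM in the parental replicates and at 881, 921 and 869 TPM in isoform 7 (-0.24, adjusted p = 4.47e-05). It was lower in 6 lines, and after rescaling in 4, with 1 line higher.

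Among the bifunctional enzymes, PFKFB3, the form with a strong bias to making fructose 2,6-bisphosphate, was at 38.3, 38.3 and 34.9 TPM in the parental replicates and at 26.4, 27.6 and 25.0 TPM in isoform 2 (-0.48, adjusted p = 5.08e-07). It was lower in 5 lines, and in 2 after rescaling. The calls for isoforms 3, 8 and 10 were lost without parental replicate 1 (adjusted p of 0.106, 0.128 and 0.0828) or 2 (0.117, 0.126 and 0.0846), and without some of their own libraries. PFKFB2 was at 8.64, 10.2 and 9.35 TPM in the parental cells and at 7.04, 7.43 and 7.24 TPM in isoform 2, and was lower in 3 lines, of which isoform 7 was lost without parental replicate 2 (adjusted p = 0.208). PFKFB4 was lower in isoforms 1 and 2 (-0.22 and -0.15) and higher in 7 lines. Its highest value was in isoform 11, at 15.5, 16.2 and 15.0 TPM against 11.2, 11.1 and 11.9 TPM in the parental cells (0.42, adjusted p = 5.51e-07). After rescaling the 2 decreases of PFKFB4 no longer passed. The decrease in isoform 2 was also lost without parental replicate 3 (adjusted p = 0.104), and the increases in isoforms 8 and 10 without parental replicate 2 (0.0563 and 0.0624).

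The gluconeogenic genes of liver were close to absent in all groups, HNF4A lines included. PCK1, the cytosolic phosphoenolpyruvate carboxykinase, was listed at 0 in 22 of 39 libraries and reached 0.0329 TPM at most. G6PC, the glucose 6-phosphatase of liver, was between 0.109 and 0.272 TPM in all libraries, with group means of 0.201 TPM in the parental cells and 0.141 to 0.199 TPM in the lines. FBP1 was at 1.44, 1.11 and 0.767 TPM in the parental replicates and at 0.954, 0.766 and 0.734 TPM in isoform 1, so both groups overlapped, and no library exceeded 1.45 TPM. FBP2, the muscle form, was at 1.04, 0.786 and 0.839 TPM in the parental replicates and at 0.347 TPM ± 0.0128 (SD, n = 3) in isoform 2, its lowest line. PKLR, the pyruvate kinase of liver and red cells, was listed at 0 in 19 libraries and reached 0.0762 TPM. These 5 genes were not tested here.

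The forms found outside liver were measured in all libraries. PCK2, the mitochondrial carboxykinase, was at 8.14, 8.51 and 8.55 TPM in the parental replicates and at 16.2, 9.91 and 16.4 TPM in isoform 1. All 3 lay above the parental range, but replicate 2 was far below the other 2. PCK2 passed in isoform 1 alone (0.66 ± 0.11, adjusted p = 7.33e-06), with 0.88 without replicate 2 and 0.54 without replicate 3, and after rescaling in 3 lines. G6PC3, the widely expressed glucose 6-phosphatase, was at 53.4, 53.4 and 56.3 TPM in the parental libraries, at 43.3, 44.1 and 42.0 TPM in isoform 1 and at 42.3, 44.6 and 41.2 TPM in isoform 2. Both lines lay below the parental range (-0.33 and -0.34, adjusted p of 2.16e-06 and 1.25e-06), and G6PC3 was higher in isoform 9 (0.15, adjusted p = 0.0363). The increase was lost without parental replicate 1 (adjusted p = 0.113) or 2 (0.111) or isoform 9 replicate 2 (0.0809) or 3 (0.135).

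Of the pyruvate dehydrogenase genes, PDHB and PDHA1 passed as higher in most lines and DLAT and DLD in few, all by small amounts. PDHB, the beta subunit of the first enzyme of the complex, was at 142, 153 and 145 TPM in the parental replicates and at 164, 170 and 168 TPM in isoform 2. It was higher in 11 of 12 lines, all but isoform 5, by 0.12 to 0.20 on the log2 scale. The calls for isoforms 1, 4 and 6 were lost without parental replicate 1 (adjusted p of 0.071, 0.151 and 0.167), and those for isoforms 4 and 6 also without parental replicate 3 (0.115 and 0.132). PDHA1, the alpha subunit, was at 69.1, 70.1 and 67.3 TPM in the parental cells and at 77.8, 78.4 and 76.0 TPM in isoform 2 and was higher in 7 lines, by at most 0.20. Its calls for isoforms 1 and 3 were lost without parental replicate 1 (adjusted p of 0.0581 and 0.0868) or 3 (0.125 and 0.175). DLAT and DLD, which encode the other enzymes of the complex, were higher in 2 and 3 lines, and after rescaling in 7 and 8. With no filter DLAT passed in 0 lines and DLD in 2. Both DLAT calls, for isoforms 1 and 9, were lost without parental replicate 1 (adjusted p of 0.166 and 0.148) or 3 (0.107 and 0.1), as were the DLD calls for isoforms 1 and 10 without parental replicate 1 (0.12 and 0.054). Of the kinases that switch the complex off, PDK2 was the most abundant, at 40.2, 40.0 and 38.1 TPM in the parental replicates and 51.7, 46.5 and 48.9 TPM in isoform 1 (0.31, adjusted p = 4.99e-06), and was higher in 7 lines. Without parental replicate 3, isoforms 3, 4, 7, 9 and 11 no longer passed for PDK2 (adjusted p of 0.159, 0.0618, 0.0545, 0.123 and 0.0796). PDK3 was higher in 3 lines, and PDK1, a known target of the hypoxia response, passed in 0 lines, with log2 fold changes between -0.20 and 0.14. After rescaling PDK3 was higher in 9 lines and PDK1 in 2. The PDK3 calls for isoforms 10 and 12 were lost without parental replicate 1 (adjusted p of 0.051 and 0.0871).

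The lines were then grouped by the N-terminal form of the isoform, with the 3 libraries of a line averaged and the 12 lines as units. By the standard nomenclature, which the labels do not state, isoforms 1 to 6 start at promoter P1, with an additional exon in 4 to 6, and isoforms 7 to 12 start at promoter P2. Against isoforms 1 to 3, isoforms 4 to 6 had 8 members higher and 5 lower, of 30 (22.1% and 12.6% of all genes), and 1 called member, ENO2 (1.95% of all genes). LDHA was lower in isoforms 4 to 6 by -0.94 ± 0.14 (SE, adjusted p = 0.00232, limma on 12 line means), ENO2 was higher by 1.05 ± 0.19 (adjusted p = 0.00465), and PFKM was higher by 0.55 ± 0.08 (adjusted p = 0.00232). The differences for ENO3 (-0.38, adjusted p = 0.064) and PFKP (-0.26, adjusted p = 0.0924) did not pass. Against isoforms 1 to 3, isoforms 7 to 9 had 2 members higher, HK2 and G6PC3, and 0 lower (6.65% and 4.95% of all genes). LDHA was lower there by -0.43 and did not pass (adjusted p = 0.0693). Without replicate 2 the 13 members of the former comparison became 8. In the latter, 2 became 7 without replicate 1 and 1 without replicate 3. Isoforms 4 and 5, whose libraries carry no replicate number, kept all 3 libraries in these fits.

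Isoforms 10 to 12 and 7 to 9, which both start at promoter P2, had 0 of 30 members apart by limma (0% of all genes), and 1 had an unadjusted p under 0.05. For isoforms 3, 6, 9 and 12, which share a short C-terminus, 0 members passed against the other C-terminal forms (0.0133% of all genes) and 6 had an unadjusted p under 0.05. The largest of these differences was in ENO3, lower by -0.75 ± 0.11 (adjusted p = 0.0795). LDHA was lower by -0.39 ± 0.10 (adjusted p = 0.129).

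**Figure D5:**
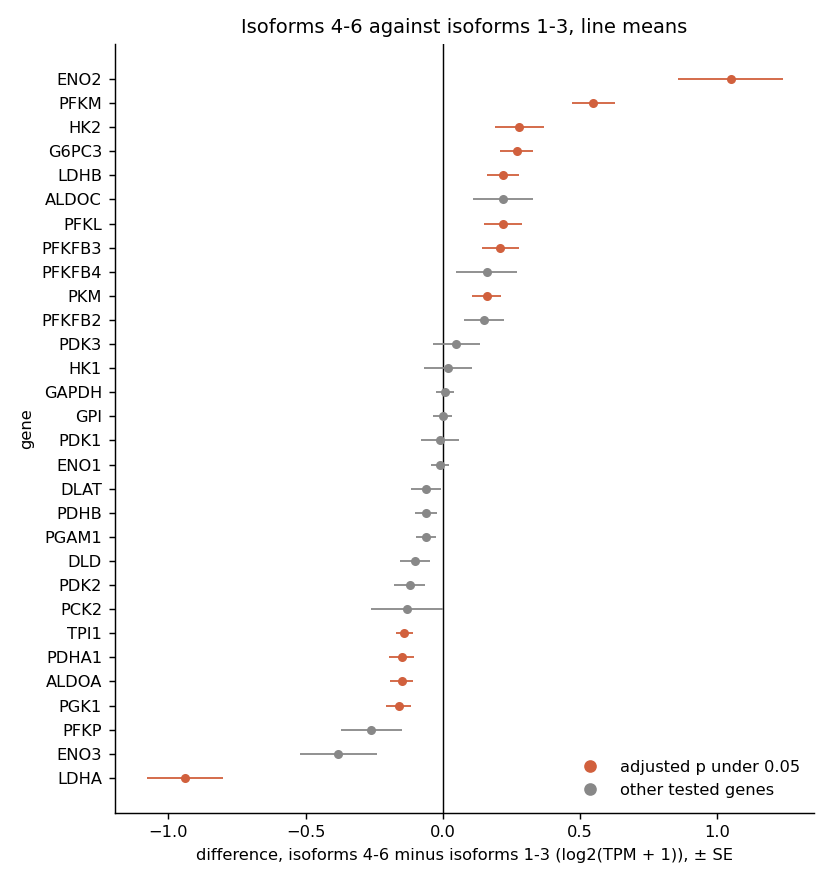
Difference between isoforms 4 to 6 and isoforms 1 to 3 for the 30 tested members, from a model of 12 line means on the log2(TPM + 1) scale, with bars of 1 SE. Points to the right are higher in isoforms 4 to 6, and colored points have an adjusted p under 0.05. ENO2 (1.05) and LDHA (-0.94) lie farthest from 0.

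Genes of the same pathways outside the 35 included a few larger changes. Of 14 other glycolytic and gluconeogenic genes, 8 were tested, and between 2 and 6 passed per line. Of all genes, 5.94% to 19.8% passed as higher and 4.13% to 38.7% as lower, depending on the line. HKDC1, another hexokinase, was at 0.0927, 0.0815 and 0.0577 TPM in the parental replicates and at 23.2, 18.1 and 22.6 TPM in isoform 1 (log2 fold change 4.36 ± 0.13, adjusted p = 1.03e-21). The added 1 TPM sets the size of this value: the ratio of the mean TPM was 275, and the authors' deposited table gave a log2 fold change of 7.36. HKDC1 was called in 9 lines and stayed at or under 0.28 TPM in all libraries of isoforms 4, 5 and 6. In isoform 1 HKDC1 held 26.7% ± 3.19 (SD, n = 3) of the sum of HK1, HK2 and HKDC1, against 0.116% in the parental cells. PC, pyruvate carboxylase, which opens gluconeogenesis in mitochondria, was at 7.09, 7.03 and 7.64 TPM in the parental replicates and at 29.7, 25.5 and 28.0 TPM in isoform 2 (1.80 ± 0.062, adjusted p = 2.55e-20). PC was called in the same 6 lines as ENO3 and passed as higher in all 12, with 0.37 in isoform 6 as the lowest.

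In the list of partners of pyruvate entry, 7 of 7 genes were tested, between 2 and 6 passed per line, and 0 were called. Of all genes, 5.94% to 19.8% passed as higher and 4.13% to 38.7% as lower, depending on the line. Only 0.247% to 4.52% were called, so 0 called of 7 does not set the list apart. MPC1 and MPC2, which form the mitochondrial pyruvate carrier, were each higher in 10 lines, by at most 0.54 and 0.64. PDP1, the phosphatase that switches pyruvate dehydrogenase on, was lower in 7 lines, by -0.80 in isoform 1 and -0.88 in isoform 2, and higher in isoform 4.

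Of the 141 differences that passed here, 125 had the same sign at an adjusted p under 0.05 in the authors' deposited table, made from the same libraries. At that threshold 0 had the opposite sign. The other 16 did not reach it there, and some of them had the opposite sign. GAPDH in isoform 2 was at -0.11 here and 0.02 there, and GPI in isoform 1 was lower here and at 0.03 there. After rescaling neither of these 2 passed here. The deposited table gave 181 of 360 at that threshold, 10 of them with a log2 fold change of at least 1 in size.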

How the data were processed

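The deposited tables hold TPM for each library, as the authors computed them. Per the submitters' processing notes, Trimmomatic 0.36, FastQC 0.11.5, kallisto 0.44.0, DESeq2 1.22.2 and GRCh38.p12 were used. The sources used here do not give the annotation or the strand setting. Per the file headers, 12 tables also hold the authors' comparison of a line with the parental cells, as log2 fold changes, p-values, scores (standard error and test statistic) and a mean normalised count, used here as a signal. These means summed to between 50609338 and 56136330 per table. They are normalised and averaged over the libraries of a comparison, so they do not give the depth of single libraries. TPM keep no counts, so no count model was used.

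The 12 HNF4A rows of each table were summed. limma 3.58.1 (R 4.3.3) was fitted to log2(TPM + 1) over 13 groups, with a trended prior, for genes whose mean reached 1 TPM, and Benjamini-Hochberg adjustment ran over all genes within a comparison. Isoform classes were compared on 12 line means, with N-terminal and C-terminal form as terms. The columns of isoforms 4 and 5 name the group but no replicate number. The steps were tested on simulated data. Alternatives changed the pseudocount, scaling, filter, call rule, libraries in the fit and replicate block, and left out single libraries. Values per library are given for members called in a line, the 8 passing in most lines in each direction, and the main gene of each committed step. Others were added after their values were seen. Members and lists were chosen with earlier results of these data known.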

Additional observations from a re-analysis of the deposited data

Results flagged for a closer look

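The members below differed between classes of lines by a test of the difference itself, with an adjusted p under 0.05 in limma on 12 line means. For isoforms 4 to 6 against 1 to 3 they made up 43.3% of the 30 tested members, where 22.1% of all genes were higher and 12.6% lower. For isoforms 7 to 9 against 1 to 3 they made up 6.67%, where 6.65% of all genes were higher and 4.95% lower, so that share was no larger than that of all genes. Between isoforms 4 to 6 and isoforms 1 to 3, the log2 difference was 1.05 for ENO2, 0.55 for PFKM, 0.28 for HK2, 0.27 for G6PC3, 0.22 for PFKL, 0.22 for LDHB, 0.21 for PFKFB3 and 0.16 for PKM, all higher in isoforms 4 to 6. It was -0.94 for LDHA, -0.16 for PGK1, -0.15 for ALDOA, -0.15 for PDHA1 and -0.14 for TPI1, all lower in isoforms 4 to 6. Between isoforms 7 to 9 and isoforms 1 to 3, it was 0.45 for HK2 and 0.27 for G6PC3, both higher in isoforms 7 to 9. With no filter neither of the latter passed (adjusted p of 0.0664 and 0.0768), and G6PC3 was also lost after rescaling (0.0587). Between isoforms 4 to 6 and 1 to 3, HK2, PFKL, PKM, LDHB and PFKFB3 were lost with no filter (0.0959, 0.0849, 0.106, 0.06 and 0.0877) and after rescaling (0.0775, 0.11, 0.22, 0.0949 and 0.166), and ALDOA and PGK1 with no filter (0.0542 and 0.0549). TPI1 and ALDOA were lost without replicate 1 (0.0501 and 0.0962) and PDHA1 without replicate 2 (0.0717). HK2, PFKL, PKM and PFKFB3 were lost without replicate 2 (0.0808, 0.053, 0.0872 and 0.0657) and without replicate 3 (0.0676, 0.0504, 0.0833 and 0.132). Between isoforms 7 to 9 and 1 to 3, G6PC3 was lost without replicate 3 (0.0555). Each class holds 3 lines, and each line is 1 insertion event.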

How the results depend on the processing

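No passing difference of a member named by the rule, or between classes of lines, changed sign, but splits of counts did turn: after rescaling, more members were higher than lower in isoforms 1 and 2, and without isoform 3 replicate 1 that line had 5 higher and 7 lower in place of 8 and 4. With no minimum fold change, the called members of isoforms 1 to 12 numbered 23, 23, 12, 7, 4, 3, 12, 16, 10, 12, 13 and 6. With a minimum of 0.5 they numbered 6 in isoform 1, 4 in isoform 2, 3 in isoforms 7, 8 and 11, 2 in isoform 10, and 1 in isoforms 4, 5, 6 and 9. Shares of all genes at a minimum of 0.5 or under the other alternatives are not given. The counts under these settings therefore cannot be set against all genes. Without single libraries, called members ranged from 0 to 1 in isoform 8 and from 1 to 2 in isoform 11. Passing members then ranged from 6 to 12 in isoform 3, 4 to 6 in isoform 4, 1 to 2 in isoform 6 and 3 to 7 in isoform 12. With no filter, 7 members passed in isoform 3. With only the 6 libraries of a comparison, 5 passed in isoform 3, 1 in isoform 6 and 5 in isoform 9. After rescaling, 13 passed in isoform 4. Between isoforms 4 to 6 and 1 to 3, 6 members passed with no filter, and from 8 to 12 without a replicate number, where isoforms 4 and 5 kept all libraries. Between isoforms 7 to 9 and 1 to 3, 1 passed after rescaling, 0 with no filter (0 by limma, where 2 passed with it), and from 1 to 7 without a replicate number. Fewer libraries or more genes tested are part of these alternatives, and the cause was otherwise not tested. Of the values of the members named by the rule, in single lines, 156 values lost the threshold under an alternative, 46 gained it and 2990 did neither.

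Same-numbered libraries of different groups correlated at -0.175 to 0.232 (median 0.0542) in their deviations from the group means. The median for libraries of other numbers was -0.0293. Of 33 libraries, 29 correlated best with their own number, so libraries of the same number shared a small part of their deviations. The main fit has no replicate term and leaves this part in the spread. With a replicate block, 23, 23, 12, 3, 12, 16, 12, 12, 13 and 8 members passed in isoforms 1, 2, 3, 6, 7, 8, 9, 10, 11 and 12. Without the block over the same 33 libraries, a setting chosen after seeing the data, 22, 23, 10, 3, 12, 15, 11, 12, 13 and 6 passed.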

Other observations

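The genes of the citrate cycle, which takes up the acetyl-CoA made from pyruvate, were all tested (16 of 16). In isoform 1, 12 were higher and 2 lower, and in isoform 2, 12 were higher and 1 lower, where 19.8% and 19.7% of all tested genes were higher and 38.7% and 35.6% lower. After rescaling these 2 lines had 14 and 15 higher and 0 lower. SUCLG1, a subunit of succinyl-CoA ligase, was at 92.2, 92.1 and 92.5 TPM in the parental replicates and at 126, 127 and 134 TPM in isoform 2 (log2 fold change 0.48, adjusted p = 3.23e-10, limma). In isoforms 4, 5 and 6, 0, 1 and 1 were higher (6.26%, 9.57% and 5.94% of all genes) and 2, 1 and 0 lower (10.1%, 5.22% and 4.13%). In isoforms 3 and 7 to 12 between 3 and 7 were higher (7.92% to 17% of all genes). In these lines 1 was lower in isoform 10 and 0 in the others (6.65% to 26.2% of all genes). After rescaling between 6 (isoform 12) and 15 (isoforms 7 and 11) were higher. Shares of all genes after rescaling are not given, so the rescaled counts in this paragraph cannot be set against them. In all lines 0 genes of the cycle were called (0.247% to 4.52% of all genes, depending on the line). Of the 7 genes of the pentose phosphate pathway, 4 were lower and 1 higher in isoforms 1 and 2. After rescaling, 2 were higher and 0 lower in isoform 1, and 1 was higher and 1 lower in isoform 2.

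Of 11 genes of the hypoxia response outside glycolysis, 6 were higher and 2 lower in isoform 1 (19.8% and 38.7% of all genes). In isoform 2, 4 were higher and 4 lower (19.7% and 35.6%). Of the 11 genes, 4 were called in isoform 1 and 2 in isoform 2, all higher. Among all genes, 4.52% and 3.73% were called there in either direction. After rescaling, 8 were higher and 2 lower in isoform 1, and 6 were higher and 3 lower in isoform 2. Shares of all genes after rescaling are not given. BNIP3L, a mitophagy receptor, was lower in 7 lines, at 46.1, 47.8 and 49.2 TPM in the parental replicates and at 25.9, 31.1 and 25.8 TPM in isoform 2 (-0.77, adjusted p = 3.58e-08). EGLN3, an oxygen-sensing prolyl hydroxylase, was also lower in 7 lines, by -0.56 in isoform 1, and higher in isoform 5 (0.28). SLC2A1, the glucose transporter GLUT1, was at 40.5, 35.5 and 36.6 TPM in the parental replicates, at 84.8 to 97.8 TPM in isoform 1 and at 90.4, 78.6 and 72.0 TPM in isoform 2 (1.23 and 1.07, both called). In isoform 9 it was lower, at 24.8, 23.1 and 22.8 TPM (-0.65, adjusted p = 8.28e-07). VEGFA, the angiogenic growth factor, was at 28.8, 27.2 and 26.8 TPM in the parental replicates and at 109, 98.2 and 110 TPM in isoform 1 (1.90, adjusted p = 1.31e-16). ADM was called in isoform 1 alone, at a mean of 16.4 TPM against 5.49 TPM in the parental cells (1.43). CA9, a carbonic anhydrase, was called in isoforms 1, 7 and 9, at 1.59, 1.56 and 1.25 on the log2(TPM + 1) scale, which understates the ratio of its low levels (7.41 between the means of isoform 1 and the parental cells). In isoform 6, 0 of these genes passed, where 5.94% of all genes were higher and 4.13% lower.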
